A study of Mus musculus with 12 samples.

Results

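A high-fat diet fed for 14 days was compared with chow feeding in the adipose tissue of C57Bl/6 mice, using 8 of the 12 Affymetrix expression arrays of the series. Every mouse ate standard chow with 13% of calories from fat up to 6 weeks of age and was group housed. The 4 chow arrays come from mice kept on that diet, and the 4 high-fat diet (HFD) arrays from mice moved at 6 weeks to a diet with 46% of calories from fat for 14 days. The remaining 4 arrays, of mice fed HFD for 5 days, entered the statistical fit to share its estimate of spread. The labels name neither the fat depot, nor sex, nor how old the chow mice were when sampled, and they do not state that each array is a separate animal. Each p therefore measures the spread between these samples, which may be technical. Total RNA was hybridised, 1 sample per array, and each gene's value is a log2 signal, so a difference of 1 is a doubling. Each of 18194 genes was represented by its probe set of highest mean, and the 13312 genes above the 40th percentile of probe set means were tested.

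White adipose tissue stores triglyceride in adipocytes, which share the tissue with macrophages, mast cells, lymphocytes, fibroblast-like progenitors, blood vessels and, in abdominal depots, a mesothelial covering. In the first weeks of overfeeding adipocytes enlarge and take up dietary fat, and genes such as Lep and Mest follow adipocyte size. Over months, obesity is known for inflammatory macrophages, interferon and chemokine signals and collagen deposition. Measurements in such bulk tissue cannot tell fewer cells of a type from less RNA per cell.

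The adipose label was borne out by adiponectin (Adipoq), which lay between 14.90 and 15.05 log2 in the 8 arrays. One 14-day array stood apart. In 14-day array 4 the epididymal genes Spink8, Adam7 and Lcn5 lay at 14.96, 13.89 and 14.54, against at most 8.87, 8.12 and 6.34 in the other 3 arrays of the group, and the mean of 11 smooth muscle markers was 12.99 against 9.66 to 10.57. Its closest array was a 5-day array, number 3 (r = 0.985 over all probe sets). By contrast, 14-day array 2 lay closest to chow array 4 (r = 0.997), and 14-day arrays 1 and 3 closest to each other (r = 0.996). Chow array 3 had a mean of 12.66 over skeletal muscle markers, and the other 7 arrays had at most 9.21. The mean of 14 liver markers ran from 8.36 to 11.85 in chow and from 9.03 to 12.58 at 14 days. Their part in the results below was not tested. Most results are therefore given with all arrays first and then without 14-day array 4.

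**Figure D1:**
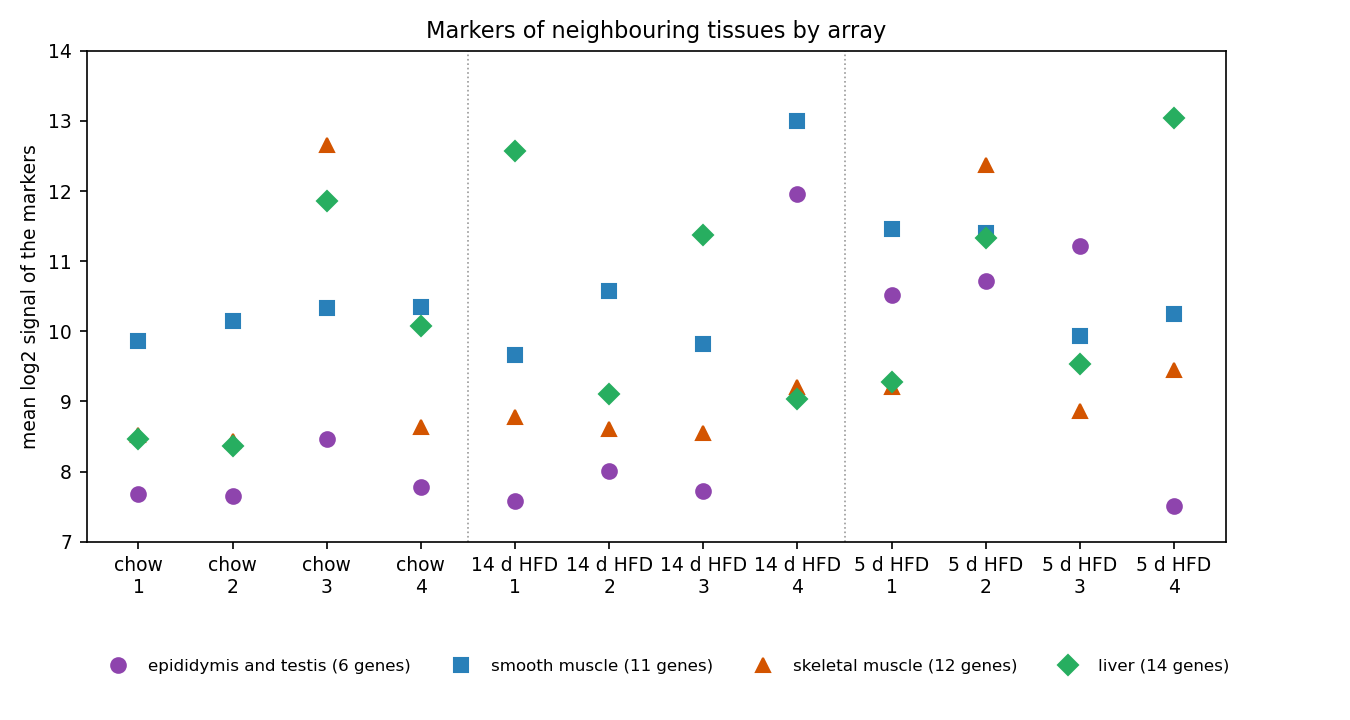
Mean log2 signal of the markers of 4 neighbouring tissues in each of the 12 arrays, with the chow and 14-day arrays first and dotted lines between groups. The epididymal mean is 11.96 in 14-day array 4 and at most 8.01 in the other 14-day arrays, and the 5-day arrays shown on the right carry 3 more high values.

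Across all genes, the difference between 14 days of HFD and chow was small next to the spread between arrays. With all arrays, 0 of 13312 genes passed a Benjamini-Hochberg adjusted p under 0.05 in limma (0% in each direction, lowest adjusted p = 0.362). At an unadjusted p under 0.05, 488 genes were higher (3.67% of those tested) and 573 lower (4.3%). The arrays of the groups did not overlap for 315 genes that were higher (2.37%) and 301 that were lower (2.26%). The median size of a difference was 0.08 log2 units, against a median standard error (SE) of 0.095.

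Without 14-day array 4, 1 gene rose and 1 fell in limma at an adjusted p under 0.05 (0.00751% of the genes in each direction). These were the immunoglobulin heavy chain gene Ighm and the lipopolysaccharide co-receptor gene Cd14. At an unadjusted p under 0.05 there were now 820 genes higher (6.16%) and 483 lower (3.63%), and the 3 remaining arrays did not overlap with chow for 822 higher (6.17%) and 461 lower genes (3.46%). A gene without overlap with all arrays cannot overlap once array 4 is left out. This second count, here and for the lists below, therefore cannot fall. The fits shared 642 genes at that unadjusted level with the same direction, 293 higher and 349 lower, which is 60.5% of the genes of the fit with all arrays and 49.3% of those of the other. No gene at an unadjusted p under 0.05 with all arrays turned its direction without array 4 (0 of 1061), whereas over all genes 2820 did (21.2%). The fits share all arrays but 1, and the 1061 genes were picked by p in the first fit. The contrast therefore does not test whether their changes hold.

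With all arrays 50 genes were higher by at least 1 log2 unit and 25 lower, and without array 4 these numbers were 40 and 19, with 9 and 10 genes in both. The largest increase with all arrays was in Ptgs2, which encodes the prostaglandin synthase cyclooxygenase-2 and was named after its value was seen. Its signal was 6.56, 6.16, 6.21 and 6.22 in chow arrays 1 to 4 and 6.29, 8.99, 6.83 and 13.62 in 14-day arrays 1 to 4. 14-day arrays 2 and 4 stood furthest above chow, and the difference of 2.65 ± 1.77 (SE, limma adjusted p = 0.737) was 1.09 ± 1.49 without array 4. The largest increases without array 4 were in Fabp1, Fga and Mug1, which the liver makes in quantity, at 2.20 ± 1.69, 2.14 ± 1.45 and 2.11 ± 1.56, with limma adjusted p of 0.67, 0.629 and 0.662 (Fabp1 and Mug1 were named after their values were seen). Fabp1 lay at 6.26, 6.55, 12.00 and 9.76 in chow and at 13.14, 7.93, 11.46 and 7.29 at 14 days, so that the groups overlapped over most of their range.

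**Figure D2:**
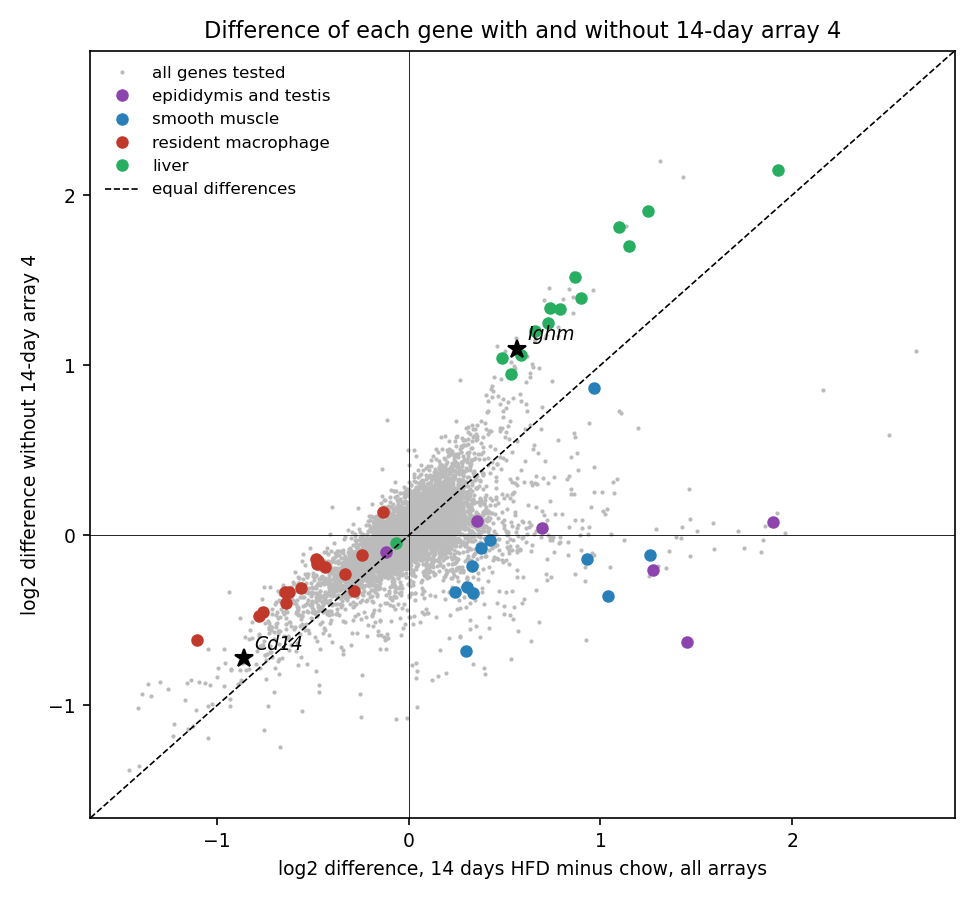
Each grey point is 1 of 13312 genes, placed by its log2 difference between 14 days of HFD and chow with all arrays (horizontal axis) and without 14-day array 4 (vertical axis); the dashed line marks equal differences, and colours mark 4 gene lists. Epididymal and most smooth muscle genes lie near or below 0 on the vertical axis, liver genes lie above the dashed line, and macrophage genes lie left of 0, all but 1 of them below 0 without array 4 too.

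Cd14 had the smallest p of the lower genes. Its signal was 10.88, 11.01, 10.96 and 10.75 in chow arrays 1 to 4 and 10.03, 10.37, 10.14 and 9.63 in 14-day arrays 1 to 4. Every 14-day array lay below every chow array, array 4 lowest. The difference was -0.86 ± 0.13 (SE, 0.551-fold, limma adjusted p = 0.362), and without array 4 Cd14 fell by 0.72 ± 0.09 (limma adjusted p = 0.0321). Its range over fits that left out 1 of the 12 arrays was -0.97 to -0.72. The call without array 4 was lost with quantile normalization, with averaged probe sets, with only the compared groups in the fit and with a replicate block. It was also lost when chow array 1, 2 or 3, any 5-day array, or 14-day array 1 or 3 was left out as well.

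Osr1, a transcription factor gene of fibroblast-like progenitors, measured 10.48, 10.77, 10.83 and 10.82 in chow and 10.27, 9.97, 9.85 and 9.85 at 14 days, also without overlap. Its difference was -0.74 ± 0.12 with all arrays and -0.70 ± 0.13 without array 4, with limma adjusted p of 0.377 and 0.297, neither of which passed. Gas6, the ligand of the receptors Tyro3, Axl and Mer that take part in clearing dying cells, measured 12.59, 12.89, 12.64 and 12.80 in chow and 11.97, 12.17, 11.67 and 11.39 at 14 days. Array 4 was again lowest and the groups were apart, with a difference of -0.93 ± 0.16 that was -0.79 ± 0.13 without array 4. The Gas6 adjusted p was 0.377 and 0.252 in limma. Its other probe set differed by only -0.12 with all arrays, and the average of the 2 by -0.53.

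The rest of the 10 leading lower genes did not overlap between groups either, and none passed. All 10 were picked by smallest p in this comparison, a choice that favours groups without overlap. The laminin chain gene Lamc3 differed by -0.37 ± 0.06 and by -0.40 ± 0.07 without array 4. The sushi-repeat gene Srpx, a secreted matrix protein gene, differed by -0.57 ± 0.10 and -0.58 ± 0.11, and Podn, a small proteoglycan gene, by -0.58 ± 0.11 and -0.47 ± 0.08. The chemokine gene Ccl8 differed by -0.70 ± 0.14 and -0.61 ± 0.14. Nmb, the neuromedin B gene, differed by -0.45 ± 0.09 and -0.41 ± 0.09, and the sialyltransferase gene St3gal6 by -0.55 ± 0.11 and -0.54 ± 0.13. The remaining gene, Oasl2, belongs to the interferon response described further on. In limma the lowest adjusted p of these genes was 0.383 with all arrays and 0.257 without array 4.

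Leading higher genes, picked by p in the same way, differed by less. Fhl1, a LIM-domain protein gene of muscle and other tissues, measured 12.98, 13.02, 13.03 and 12.96 in chow and 13.55, 13.23, 13.57 and 13.29 at 14 days. The chow arrays lay close together, the groups did not overlap, and 14-day array 2 was the lowest of its group. The difference was 0.41 ± 0.08, and 0.45 ± 0.08 without array 4 (limma adjusted p = 0.407 and 0.257, not passed). The other Fhl1 probe set differed by 0.03 with all arrays, and the average of both by 0.22. Mrps6, a protein of the small subunit of the mitochondrial ribosome, measured 12.13, 12.03, 11.73 and 12.08 in chow and 12.67, 12.32, 12.86 and 12.55 at 14 days. It was 1.52-fold higher, at 0.61 ± 0.13 with all arrays and 0.62 ± 0.14 without array 4, with limma adjusted p of 0.407 and 0.482.

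Cox17 encodes the copper chaperone of cytochrome c oxidase. Its chow arrays lay at 12.69, 12.71, 12.69 and 12.71, and its 14-day arrays at 13.06, 12.82, 13.04 and 12.89. All 14-day arrays were higher, by 0.25 ± 0.06 on average and 0.27 ± 0.06 without array 4 (limma adjusted p = 0.433 and 0.482), but its other probe set differed by 0.02 and the average of both by 0.13. Of the other leading higher genes, Slc33a1 (an acetyl-CoA transporter), Psme4 (a proteasome activator) and Gdpd5 (a phosphodiesterase) differed by 0.33 ± 0.07, 0.33 ± 0.07 and 0.31 ± 0.08, and Fam98a and Zfp593 by 0.32 ± 0.07 and 0.26 ± 0.06, each without overlap. Dcaf4, at 0.39 ± 0.09, and the talin gene Tln2, at 0.46 ± 0.11, overlapped between groups. Without array 4 these 7 genes, in the order named, were at 0.29, 0.31, 0.26, 0.27, 0.23, 0.35 and 0.42. The 6 Psme4 probe sets differed by -0.07 to 0.36.

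**Figure D3:**
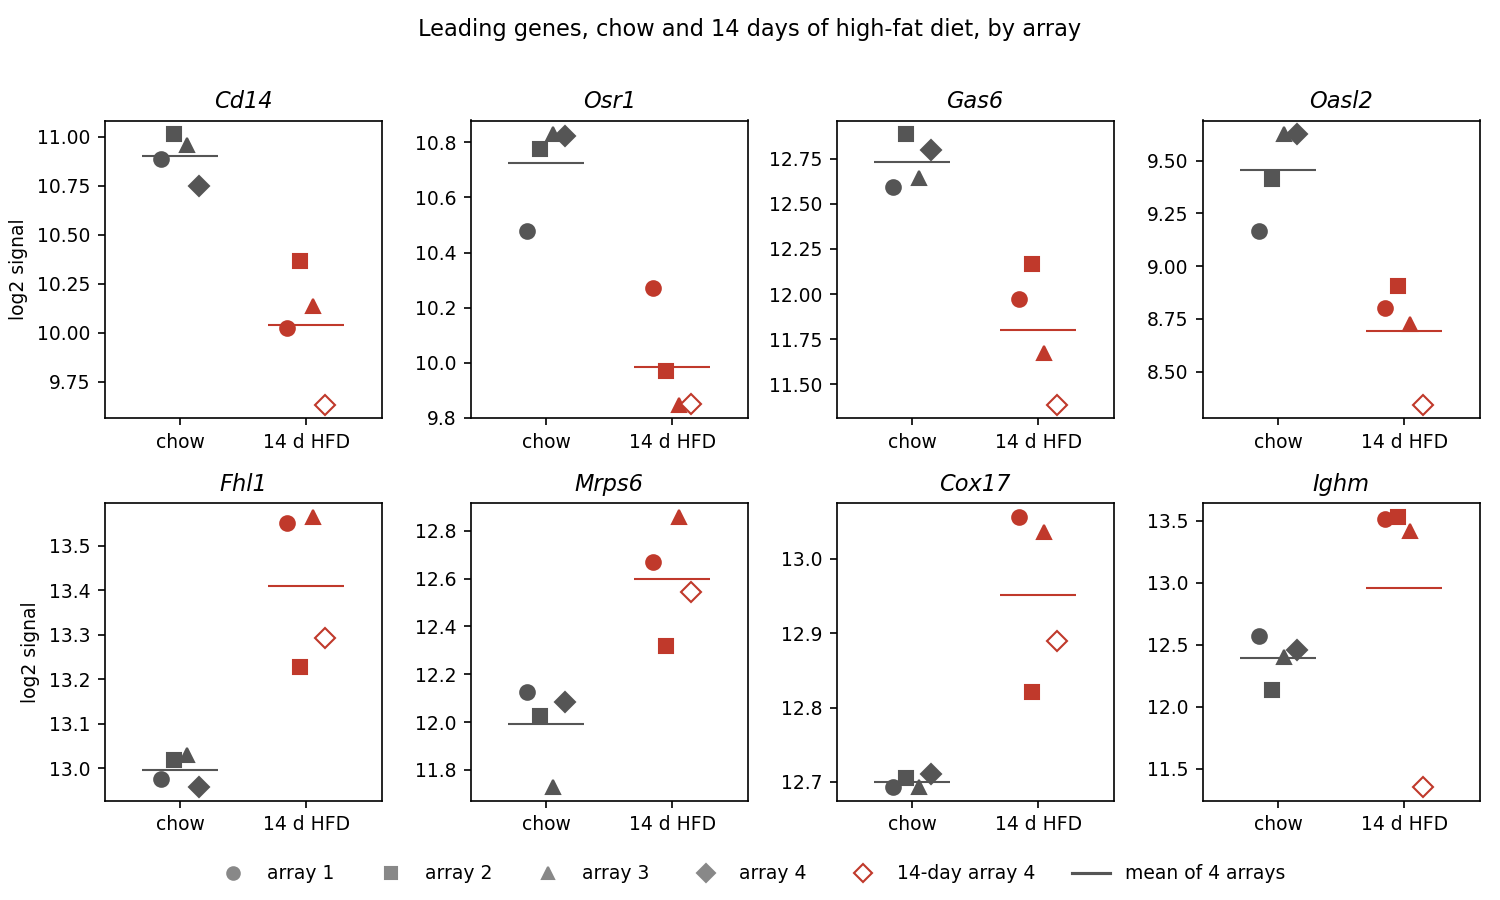
Log2 signal of 8 genes in each chow array (grey) and each 14-day array (red), with marker shapes for the array number, an open diamond for 14-day array 4 and a line at the mean of 4 arrays; the vertical axes differ and do not start at 0. In the first 7 panels, of genes picked by small p in this comparison, the groups do not overlap. For Ighm 14-day array 4, at 11.35, lies below all chow arrays and the other 3 lie above them.

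Ighm passed without array 4 and not with all arrays. The gene encodes the heavy chain of immunoglobulin M, carried by B cells and plasma cells. It measured 12.57, 12.13, 12.40 and 12.46 in chow and 13.51, 13.53, 13.42 and 11.35 at 14 days. Arrays 1, 2 and 3 of the 14-day group lay close together above all chow arrays, and array 4 lay below all chow arrays. With all arrays the difference was 0.56 ± 0.40 (limma adjusted p = 0.762), and without array 4 Ighm rose by 1.10 ± 0.10, or 2.14-fold (limma adjusted p = 0.00771). Ighm has 11 probe sets, and without array 4 the brightest and the next brightest differed by 1.10 and 1.06 and the other 9 by 0.05 to 0.31. The other B cell genes did not follow: Cd22 differed by -0.03 ± 0.11 without array 4. Of the 5 tested genes of the list, Ighm alone had an unadjusted p under 0.05 in that fit (6.16% of all genes were higher at that level). With averaged probe sets, with only the compared groups in the fit or with a replicate block, 0 genes were called without array 4, so that the Ighm call was lost too. These calls rested on few arrays: leaving out 14-day array 1 or 3 besides array 4 gave 0 calls, leaving out array 2 besides it gave 665, and leaving out any 1 chow or 5-day array gave 1 or 2.

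Several genes were led by 14-day arrays 1 to 3, with array 4 the lowest of its group. Of these, Fabp5, Clstn3, Atp2a3 and Cmbl were picked as higher genes of small p without array 4. Such a choice favours genes that are low in array 4. The pattern and the larger differences without it are therefore partly built in. Fabp5, a fatty acid binding protein gene of macrophages and adipose tissue, measured 13.38, 13.19, 13.20 and 13.36 in chow and 13.87, 13.58, 14.09 and 13.02 at 14 days, so that array 4 alone lay below chow. Its difference of 0.36 ± 0.18 was 0.56 ± 0.11 without array 4 (limma adjusted p = 0.665 and 0.31). Clstn3, which encodes calsyntenin 3 and has a product in adipocyte lipid handling, differed by 0.23 ± 0.15 and 0.41 ± 0.08. Trub2, a mitochondrial pseudouridine synthase gene, differed by 0.52 ± 0.15 and 0.64 ± 0.12 and lay above chow in all 14-day arrays. The calcium pump gene Atp2a3 differed by 0.42 ± 0.13 and 0.52 ± 0.12, likewise without overlap. Tmed5 and Cmbl had differences of 0.07 ± 0.13 and 0.24 ± 0.19 with all arrays against 0.24 ± 0.05 and 0.47 ± 0.10 without array 4. None of these 6 genes passed in either fit.

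Leaving out each array in turn, 14-day array 2 had the most effect on the number of calls. Without it, 20 genes passed at an adjusted p under 0.05 in limma, 10 higher and 10 lower (0.0751% of the genes each), against 2 without array 4 and 0 without any other single array. At an unadjusted p under 0.05 it left 7.65% of all genes higher and 7.11% lower. Cd14 was the 1 gene called both without array 2 and without array 4. Of the 20, 3 are named here after their values were seen. Gcsh, of the mitochondrial glycine cleavage system, measured 12.21, 12.17, 12.10 and 12.12 in chow and 12.69, 12.16, 12.71 and 12.74 at 14 days. Array 2 lay inside the chow range and the other 3 above it, and the difference was 0.42 ± 0.11 with all arrays and 0.56 ± 0.05 without array 2 (limma adjusted p = 0.471 and 0.0136). Gamt, of creatine synthesis, differed by 0.94 ± 0.33 with all arrays and 1.34 ± 0.18 without array 2, and Igfbp7, a secreted binding protein gene of vessels and stroma, by -0.54 ± 0.13 and -0.68 ± 0.07. For both, too, array 2 lay within the range of the chow arrays. Array 2 also had the highest 3′ minus 5′ difference of the 8 arrays, a measure of RNA quality, at the Gapdh control probe sets (0.276 against 0.064 to 0.134) and the actin ones (0.547 against 0.421 to 0.466), and the part of this in the result was not tested.

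Genes of the interferon response were lower in 23 of 24 cases, Ifi35 being the exception at 0.02, with a median difference of -0.36 against 0.02 over all genes. Type I interferon induces such genes, and their products sense and block viral nucleic acid. The groups did not overlap for 6 of them (2.26% of all genes were lower in this way). An unadjusted p under 0.05 was reached by 13 (4.3% of all genes were lower at that level), and none passed. Without array 4 the median was -0.33, and 24 of 24 were lower. Chow arrays disagreed among themselves: the list mean was 9.54, 9.52, 10.01 and 10.02 in chow arrays 1 to 4 and 9.42, 9.47, 9.39 and 9.33 in the 14-day arrays. The 14-day arrays were lowest throughout, but chow arrays 1 and 2 were closer to them than to chow arrays 3 and 4. Chow arrays 3 and 4 were also those with the higher chow levels of liver markers, with means of 11.85 and 10.07 against 8.47 and 8.36, and the part of this in the difference was not tested.

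Oasl2, of the oligoadenylate synthetase family, led the list. It measured 9.17, 9.41, 9.63 and 9.62 in chow and 8.80, 8.91, 8.72 and 8.34 at 14 days, without overlap. The difference was -0.76 ± 0.14 and without array 4 -0.65 ± 0.12 (limma adjusted p = 0.407 and 0.31). Its relative Oas1a, an RNA-activated synthetase, measured 9.72, 9.70, 9.97 and 9.97 in chow and 9.60, 9.63, 9.49 and 9.54 at 14 days, a difference of -0.27 ± 0.07, and -0.27 ± 0.08 without array 4. Zbp1, a sensor of unusual nucleic acid, and Xaf1, a pro-apoptotic gene, differed by -0.38 ± 0.09 and -0.46 ± 0.14, again without overlap, and by -0.31 ± 0.08 and -0.42 ± 0.15 without array 4.

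Stat2 and Irf9, which encode transcription factors of the interferon signal, stood higher in array 4 than in the rest of the group. Stat2 measured 8.64, 8.73, 8.82 and 8.86 in chow and 8.05, 8.40, 8.44 and 8.72 at 14 days. The difference was -0.36 ± 0.12, and -0.47 ± 0.10 without array 4, which alone overlapped with chow (limma adjusted p = 0.553 and 0.467). Irf9 measured 9.36, 9.62, 9.83 and 9.83 in chow and 9.10, 9.29, 9.08 and 10.56 at 14 days. Array 4 was the highest of all 8 and the other 14-day arrays were below chow, at -0.15 ± 0.29 with and -0.50 ± 0.14 without array 4.

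The promoters of interferon genes are shown because most of those with a promoter window carry the letters of the interferon-stimulated response element. It was searched as GAAA, any 2 bases and GAAA again, on both strands with overlapping matches allowed. RefSeq (GRCm38.p6) promoter windows of 300 bases were given for 19 of the 24 genes, and 12 of them held a match, against 3.52% of the 10679 tested genes with a window and 3.44% of all 32851 windows. The 250 bases before the start of Oas1a (chr5:120907526-120907775, minus strand) and of Stat2 (chr10:128270248-128270497, plus strand) follow 5′ to 3′, with the matching letters in capitals.
Oas1a: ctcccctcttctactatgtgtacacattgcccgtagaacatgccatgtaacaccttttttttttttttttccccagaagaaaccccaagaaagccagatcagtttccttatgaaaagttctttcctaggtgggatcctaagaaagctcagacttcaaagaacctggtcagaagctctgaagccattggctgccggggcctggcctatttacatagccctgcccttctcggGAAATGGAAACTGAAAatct
Stat2: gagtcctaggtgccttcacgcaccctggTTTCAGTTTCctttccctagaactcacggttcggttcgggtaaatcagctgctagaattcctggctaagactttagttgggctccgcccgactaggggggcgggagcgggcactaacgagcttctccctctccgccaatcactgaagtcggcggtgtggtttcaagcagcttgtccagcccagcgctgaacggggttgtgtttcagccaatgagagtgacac
Oas1a has 2 overlapping matches, the first beginning 20 bases before the gene start, and Stat2 has 1, read on the opposite strand and beginning 222 bases before it. The window of Oasl2, the leading gene of the list, held no match. These are matches of letters, and no binding was measured.

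Antigen presentation genes were lower as well. All 6 tested genes of major histocompatibility complex (MHC) class II, which present peptides to helper T cells, were lower with and without array 4, with medians of -0.61 and -0.45. The groups did not overlap for 4 of them (background 2.26%), and all 6 had an unadjusted p under 0.05 (background 4.3%), but none passed. Cd74, the invariant chain, measured 13.55, 13.50, 13.42 and 13.72 in chow and 12.80, 13.38, 13.01 and 12.31 at 14 days, with array 2 just below the lowest chow array and array 4 lowest. The difference was -0.67 ± 0.18, and -0.48 ± 0.12 without array 4 (limma adjusted p = 0.467 and 0.482). H2-Ab1, H2-Eb1 and H2-DMa differed by -0.68 ± 0.19, -0.64 ± 0.18 and -0.55 ± 0.16, and by -0.49 ± 0.13, -0.44 ± 0.12 and -0.36 ± 0.10 without array 4. In the class I list 12 of 13 genes were lower, with a median of -0.18, and 11 of 13 without array 4, with a median of -0.12. Psmb8 and Psmb9, catalytic subunits of the immunoproteasome, led it at -0.56 ± 0.12 and -0.50 ± 0.13, and the trimming peptidase gene Erap1 followed at -0.23 ± 0.06. Without array 4 they were at -0.48 ± 0.12, -0.39 ± 0.11 and -0.22 ± 0.06. None of the 3 overlapped between groups (2.26% of all genes were lower in this way).

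Resident macrophage markers were lower in 15 of 15 genes, by a median of -0.49, and in 14 of 15 without array 4, by -0.31. The groups did not overlap for 6 of them with all arrays, and so for the same 6 without array 4 (background 2.26% and 3.46%). With all arrays 8 had an unadjusted p under 0.05 (background 4.3%), and none passed. The list mean was 11.03, 10.78, 10.81 and 10.86 in chow and 10.35, 10.61, 10.83 and 9.55 at 14 days. Array 4 was more than 1 log2 unit below chow, and 14-day array 3 was inside the chow range. C1qc, a chain of complement C1q made by macrophages, measured 12.04, 11.77, 11.75 and 11.75 in chow and 11.06, 11.40, 11.58 and 10.13 at 14 days. It differed by -0.78 ± 0.26 and, without array 4, by -0.48 ± 0.14 (limma adjusted p = 0.553 and 0.482). C1qa gave -0.76 ± 0.26 and -0.45 ± 0.15, the folate receptor gene Folr2 -0.64 ± 0.22 and -0.40 ± 0.14, the lectin gene Clec10a -0.56 ± 0.21 and -0.31 ± 0.10, and Ms4a7 -0.33 ± 0.11 and -0.23 ± 0.09.

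General macrophage markers were lower in 12 of 12 genes in both fits, with medians of -0.40 and -0.17. Lysozyme (Lyz2) measured 13.52, 13.38, 13.24 and 13.35 in chow and 12.88, 13.10, 13.11 and 11.71 at 14 days. All 14-day arrays were lower, and the difference of -0.67 ± 0.26 was -0.34 ± 0.10 without array 4. Fcgr3, an antibody receptor, and its signalling partner Tyrobp differed by -0.52 ± 0.18 and -0.58 ± 0.23, or by -0.31 ± 0.11 and -0.28 ± 0.09 without array 4. The macrophage surface marker gene Adgre1 (-0.39 ± 0.23 and -0.10 ± 0.11) and the CD11c gene Itgax (-0.15 ± 0.13 and -0.01 ± 0.08) overlapped between groups, and their limma adjusted p were 0.714 and 0.806 with all arrays. Markers of lipid-handling macrophages had medians of -0.02 and 0.04, with Lgals3 at 0.28 ± 0.17 and 0.42 ± 0.14 and Ctss at -0.40 ± 0.21 and -0.15 ± 0.12.

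Complement genes outside C1q were lower in 9 of 9 cases, with a median of -0.51, and in 8 of 9 without array 4, with a median of -0.37. The groups did not overlap for 6 of the 9 with all arrays, and so for the same 6 without array 4 (background 2.26% and 3.46%). With all arrays 8 had an unadjusted p under 0.05 (background 4.3%). The list mean in every chow array, 11.33 to 11.43, exceeded that in every 14-day array, which was 11.05, 11.11, 10.95 and 10.38. Serping1, the inhibitor of C1, measured 13.31, 13.51, 13.39 and 13.57 in chow and 13.06, 13.00, 12.82 and 12.33 at 14 days, without overlap, with differences of -0.64 ± 0.14 and -0.48 ± 0.08 (limma adjusted p = 0.407 and 0.252). The protease gene C1ra differed by -0.69 ± 0.15 and -0.52 ± 0.09, the convertase gene C2 by -0.51 ± 0.12 and -0.45 ± 0.12, properdin (Cfp) by -0.71 ± 0.23 and -0.44 ± 0.11, and the C3a receptor gene C3ar1 by -0.41 ± 0.11 and -0.34 ± 0.10.

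Of 19 chemokine and cytokine genes, 18 were lower with all arrays, with a median of -0.27, and 18 without array 4, with a median of -0.16. Besides Ccl8, the myeloid chemokine gene Ccl6 measured 12.89, 12.77, 12.75 and 12.79 in chow and 12.30, 12.49, 12.70 and 11.26 at 14 days, without overlap and with array 3 just under the chow range. It differed by -0.61 ± 0.24 and -0.30 ± 0.10. Il18 differed by -0.53 ± 0.22 and -0.24 ± 0.09, Cxcl10, an interferon-induced chemokine gene, by -0.37 ± 0.11 and -0.35 ± 0.12, and the T cell attractant gene Ccl5 by -0.31 ± 0.11 and -0.36 ± 0.11. Ccl2, the monocyte attractant, overlapped at -0.30 ± 0.18 and -0.16 ± 0.16. Tnf was at -0.03 ± 0.08 with all arrays and 0.00 ± 0.09 without array 4, with a limma adjusted p of 0.933 and 0.997. Of the Toll-like receptor and adhesion genes, 12 of 12 were lower (median -0.19) and 8 of 12 without array 4 (median -0.18), with Tlr2, a receptor for bacterial lipoprotein, at -0.46 ± 0.12 and -0.37 ± 0.11 and the adhesion gene Icam1 at -0.44 ± 0.12 and -0.37 ± 0.12.

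Mast cell genes differed by nearly the same amount with and without array 4. All 6 were lower in both fits, with medians of -0.36 and -0.35. The groups did not overlap for 3 with all arrays, and so for the same 3 without array 4 (background 2.26% and 3.46%). The chymase gene Cma1 measured 9.27, 9.15, 9.06 and 9.10 in chow and 8.89, 8.79, 8.60 and 8.62 at 14 days, a difference of -0.42 ± 0.12 and -0.39 ± 0.13. Mcpt4, another chymase gene, measured 8.44, 8.38, 8.23 and 8.31 against 8.07, 7.89, 7.97 and 7.94. It differed by -0.37 ± 0.10 and -0.36 ± 0.11 (limma adjusted p = 0.466 and 0.482). Carboxypeptidase A3 (Cpa3) differed by -0.36 ± 0.10 and -0.32 ± 0.10, and Hdc, the histamine-forming enzyme, by -0.72 ± 0.27 and -0.56 ± 0.27 with overlap. T and NK cell genes had medians of -0.05 and -0.01, with Cd3e at -0.05 ± 0.09 and Cd8a at -0.05 ± 0.06. In either fit 0 of their 5 genes had an unadjusted p under 0.05. Over all genes 3.67% were higher and 4.3% lower at that level, and 6.16% and 3.63% without array 4.

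**Figure D4:**
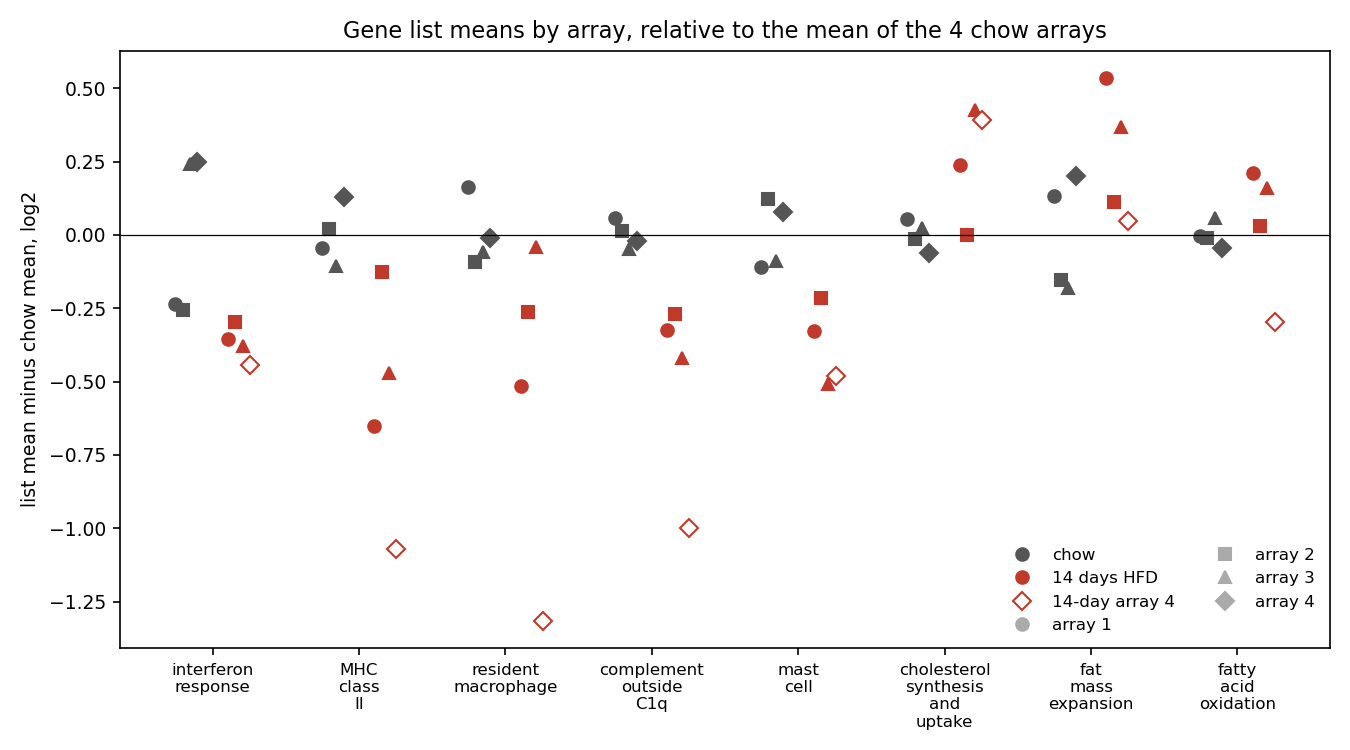
Mean log2 signal of 8 gene lists in each array, minus the mean of the 4 chow arrays, with chow in grey, 14 days of HFD in red, shapes for the array number and an open diamond for 14-day array 4. Array 4 is the lowest for interferon, MHC class II, resident macrophage, complement and fatty acid oxidation genes, and the interferon values of chow arrays 1 and 2 lie near the 14-day arrays.

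Matrix and progenitor genes gave a split picture. Among 21 matrix and remodelling genes 18 were lower (median -0.20) and 14 without array 4 (median -0.09). The groups did not overlap for 4 with all arrays, and so for the same 4 without array 4 (background 2.26% and 3.46%). Fibromodulin (Fmod), a proteoglycan that organises collagen fibrils, measured 11.16, 11.47, 11.10 and 11.15 in chow and 10.70, 10.47, 10.37 and 9.96 at 14 days. The groups were apart, at -0.84 ± 0.18 and -0.70 ± 0.16 (limma adjusted p = 0.407 and 0.482), and the 6 Fmod probe sets differed by -0.84 to -0.49 with all arrays. Decorin (Dcn) differed by -0.36 ± 0.10 and -0.27 ± 0.07, the metalloproteinase inhibitor gene Timp2 by -0.55 ± 0.14 and -0.42 ± 0.11, and the membrane metalloproteinase gene Mmp14 by -0.45 ± 0.12 and -0.44 ± 0.13.

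Collagen genes lay on both sides of 0. Col1a2, a chain of type I collagen, measured 13.29, 13.49, 13.27 and 13.50 in chow and 12.88, 13.13, 12.96 and 12.47 at 14 days. All 14-day arrays were lower, by -0.53 ± 0.13 on average and -0.40 ± 0.09 without array 4. Col1a1 differed by -0.53 ± 0.20 and -0.33 ± 0.15, and Col14a1 by -0.51 ± 0.20 and -0.34 ± 0.17. Col15a1, a basement membrane collagen gene, measured 11.81, 11.41, 11.11 and 11.30 in chow and 12.52, 11.73, 12.76 and 11.14 at 14 days. Arrays 1 and 3 were high and arrays 2 and 4 inside the chow range, with differences of 0.63 ± 0.31 and 0.93 ± 0.24 (limma adjusted p = 0.641 and 0.482). Col5a3 was at 0.54 ± 0.28 and 0.81 ± 0.22, and Col6a2 at 0.25 ± 0.22 and 0.46 ± 0.17. Over the 17 tested collagens the median was 0.04 with all arrays and 0.18 without array 4, and none passed.

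Of 13 preadipocyte and fibroblast markers, 11 were lower (median -0.14) and 9 without array 4 (median -0.16). Pdgfra, the growth factor receptor that marks adipocyte progenitors, measured 11.23, 11.60, 11.47 and 11.59 in chow and 10.90, 11.22, 10.74 and 10.80 at 14 days. Its highest 14-day array lay just below its lowest chow array, and it differed by -0.56 ± 0.12 and -0.52 ± 0.13 (limma adjusted p = 0.407 and 0.482). Sfrp2, a secreted modulator of Wnt signals, differed by -0.56 ± 0.20 and -0.48 ± 0.21. Lrrc17, a leucine-rich repeat protein gene, differed by -0.78 ± 0.18 and -0.58 ± 0.11, while its other probe set differed by 0.02 with all arrays.

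Mesothelial markers, which come from the lining of the abdominal cavity, were lower in 10 of 12 genes with a median of -0.60, and in 12 of 12 without array 4 with a median of -0.38. The transcription factor gene Wt1 measured 9.84, 9.87, 9.90 and 9.97 in chow and 9.63, 9.50, 9.45 and 8.56 at 14 days. It was the 1 of 12 members without overlap (background 2.26% and 3.46%), at -0.61 ± 0.19 and -0.37 ± 0.07 (limma adjusted p = 0.535 and 0.314). Upk3b, Bnc1 and Rspo1 were at -0.78 ± 0.30, -0.70 ± 0.26 and -0.88 ± 0.34, and at -0.44 ± 0.17, -0.41 ± 0.16 and -0.48 ± 0.19 without array 4. The list mean over arrays was 10.43 to 10.69 in chow and 10.44, 10.08, 10.05 and 9.59 at 14 days, so 14-day array 1 was inside the chow range.

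Genes known to follow fat mass were higher in 7 of 8 cases, with medians of 0.26 and, without array 4, 0.42. The groups overlapped for all 8, and only 2.37% of all genes were higher without overlap. Leptin (Lep), the hormone that reports fat stores, measured 12.58, 12.06, 11.81 and 12.41 in chow and 12.90, 12.23, 12.99 and 11.56 at 14 days. Arrays 1 and 3 were above chow, array 2 inside and array 4 below, with differences of 0.20 ± 0.29 and 0.49 ± 0.22 (limma adjusted p = 0.883 and 0.51). Sfrp5, a secreted Wnt inhibitor of enlarging adipocytes, measured 9.63, 9.57, 9.26 and 10.04 against 11.50, 9.87, 10.46 and 8.88. It differed by 0.55 ± 0.45 and 0.99 ± 0.35 (limma adjusted p = 0.796 and 0.482). Mest differed by 0.35 ± 0.31 and 0.59 ± 0.28 and the natriuretic peptide clearance receptor gene Npr3 by 0.31 ± 0.26 and 0.57 ± 0.19.

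Cholesterol synthesis and uptake genes were higher in 19 of 20 cases with all arrays and 18 without array 4, with medians of 0.20 and 0.27. None passed, and 0 did not overlap with all arrays. Over all genes 2.37% were higher without overlap, so that 0 of 20 is near that share. The list mean was 9.91, 9.84, 9.88 and 9.79 in chow and 10.09, 9.85, 10.28 and 10.25 at 14 days, with array 2 alone inside the chow range. Insig1, which retains the sterol sensor in the endoplasmic reticulum and is itself a target of it, measured 10.82, 10.34, 10.62 and 10.55 in chow and 10.98, 10.87, 11.32 and 10.66 at 14 days. It differed by 0.38 ± 0.13 and 0.48 ± 0.13 (limma adjusted p = 0.58 and 0.482). Hmgcs1, which makes HMG-CoA for the pathway, measured 12.43, 12.05, 12.14 and 12.43 against 12.75, 12.72, 12.61 and 12.19. Arrays 1 to 3 were above chow and array 4 inside it, at 0.31 ± 0.16 and 0.43 ± 0.14. Msmo1 was at 0.46 ± 0.14 and 0.32 ± 0.11, Sc5d at 0.19 ± 0.13 and 0.34 ± 0.09, and Fdps at 0.88 ± 0.42 and 0.48 ± 0.34. The other Fdps probe set differed by -0.13 with all arrays.

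Hmgcs1 was the 1 gene of the 16 cholesterol genes with a RefSeq window whose 300 bases held the letters TCACNCCAC of a sterol regulatory element on either strand, against 1.44% of tested genes. The 250 bases before its start (GRCm38.p6, chr13:119690101-119690350, plus strand) are printed for that match, which is in capitals and begins 137 bases before the gene start.
Hmgcs1: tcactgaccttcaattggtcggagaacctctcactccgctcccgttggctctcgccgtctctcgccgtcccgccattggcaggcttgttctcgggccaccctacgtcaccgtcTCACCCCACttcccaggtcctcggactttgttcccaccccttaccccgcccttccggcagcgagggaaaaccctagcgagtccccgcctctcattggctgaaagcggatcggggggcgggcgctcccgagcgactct

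Fatty acid synthesis genes were lower in 13 of 17 cases with all arrays and 10 without array 4, with medians of -0.09 and -0.15. Fatty acid synthase (Fasn) measured 14.57, 14.32, 14.32 and 14.07 in chow and 13.90, 13.42, 14.62 and 13.36 at 14 days. Array 3 was the highest of the 8 and the other 3 below chow, with differences of -0.49 ± 0.23 and -0.34 ± 0.22 (limma adjusted p = 0.637 and 0.623). Acaca, the carboxylase of the preceding step, differed by -0.51 ± 0.20 and -0.33 ± 0.17. Scd2, a desaturase gene, measured 12.19, 12.22, 11.83 and 12.05 against 12.71, 11.87, 13.37 and 13.80, with array 2 inside the chow range and the rest above, at 0.86 ± 0.35 and 0.58 ± 0.31. Its relative Scd1 lay at 15.11 to 15.20 in every array, near the top of the arrays' scale, which limits what a difference can show there.

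Fat uptake and burning genes showed small differences, which were larger without array 4 for most genes named here but not for Slc27a4. Of 21 fatty acid oxidation genes 17 were higher (median 0.05) and 19 without array 4 (median 0.15). Without array 4, 7 did not overlap (background 6.17%) and 7 had an unadjusted p under 0.05 (background 6.16%). Cpt2, the inner mitochondrial carnitine transferase, measured 12.51, 12.33, 12.54 and 12.37 in chow and 12.76, 12.59, 12.74 and 12.13 at 14 days. Arrays 1 to 3 were above and array 4 below chow, at 0.12 ± 0.14 and 0.26 ± 0.10. Hadhb of the trifunctional protein differed by 0.10 ± 0.12 and 0.22 ± 0.08. The monoglyceride lipase gene Mgll differed by 0.13 ± 0.06 and 0.18 ± 0.05, the acyltransferase gene Agpat2 by 0.22 ± 0.18 and 0.41 ± 0.12, and the fatty acid transporter gene Slc27a4, without overlap, by 0.30 ± 0.10 and 0.19 ± 0.06. Respiratory chain genes were higher in 23 of 28 and 26 of 28 cases with medians of 0.04 and 0.10, and cytochrome c (Cycs) was at 0.20 ± 0.08 and 0.24 ± 0.08. Of 13 glycolysis genes 9 and 10 were higher, with hexokinase 2 (Hk2) at 0.15 ± 0.07 and 0.18 ± 0.07 and Tpi1 at 0.22 ± 0.14 and 0.34 ± 0.12.

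Adipocyte identity genes stayed near 0, with medians of -0.05 and 0.02. Adipoq was at -0.03 ± 0.04 and 0.00 ± 0.03, with a signal also near the top of the scale, which limits what a difference can show. The insulin-responsive glucose transporter gene Slc2a4 measured 12.21, 11.89, 12.10 and 11.84 in chow and 12.35, 11.98, 12.36 and 11.56 at 14 days, with overlap, at 0.05 ± 0.16 and 0.22 ± 0.11. Pparg, the master regulator of adipocytes, was at -0.29 ± 0.16 with all arrays, where array 4 measured 11.75 and the others 12.46 to 12.51, and at -0.10 ± 0.09 without it. Insulin signalling genes had medians of -0.01 and 0.03 and hypoxia genes -0.02 and 0.02. Hif1a, the oxygen-sensing factor, was at 0.13 ± 0.07 and 0.16 ± 0.07, the adenine nucleotide carrier gene Slc25a5 at 0.02 ± 0.06 and 0.05 ± 0.06, and the inducible nitric oxide synthase gene Nos2 at 0.05 ± 0.08 and 0.09 ± 0.09. Ucp1, of brown and beige adipocytes, was under the filter, at 6.91 to 7.35 in the 8 arrays.

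Some single genes of other lists did not overlap, where over all genes 2.37% were higher and 2.26% lower in this way. They were 1 of 12 glucocorticoid target genes, 1 higher and 1 lower of 13 clock genes, 1 of 14 cell cycle genes and 1 of 11 smooth muscle genes. The endothelium, immediate early, heat shock and unfolded protein response lists had none. These counts describe single genes and not the lists. Hsd11b1, which regenerates active glucocorticoid in fat, measured 13.57, 13.52, 13.50 and 13.40 in chow and 13.12, 12.85, 13.13 and 12.29 at 14 days, with differences of -0.65 ± 0.17 and -0.47 ± 0.10 (limma adjusted p = 0.466 and 0.482). The clock genes Per2, at -0.38 ± 0.13 and -0.28 ± 0.12, and Clock, at 0.25 ± 0.10 and 0.23 ± 0.11, differed in opposite directions, and the time of day of collection is not in the labels. Cks2, a subunit of cell cycle kinases, measured 7.94, 8.02, 7.86 and 8.13 against 8.58, 8.18, 8.73 and 9.05, at 0.65 ± 0.17 and 0.51 ± 0.16, while the 14 cell cycle genes had medians of 0.03 and 0.00. Synpo2, an actin-binding protein gene on the smooth muscle list, was higher in all 14-day arrays, at 0.96 ± 0.28 and 0.87 ± 0.29, whereas 10 of the 11 tested genes of that list were lower without array 4.

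The choice of probe set mattered for several genes. Of the 129 named genes that were compared, 23 differed by over 1.5 times, or turned, when all probe sets of a gene were averaged. Besides those given above, St3gal6 was then at -0.32, Psme4 at 0.17, Tln2 at 0.30, Igfbp7 at -0.27, Xaf1 at -0.24, Psmb8 at -0.32, H2-DMa at -0.35 and Cfp at -0.44. Col1a1 and Col1a2 were both at -0.33, Col5a3 at 0.27, Msmo1 at 0.26, Clock at 0.13, Lrrc17 at -0.38, and Ighm, with all arrays, at 0.18.

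**Figure D5:**
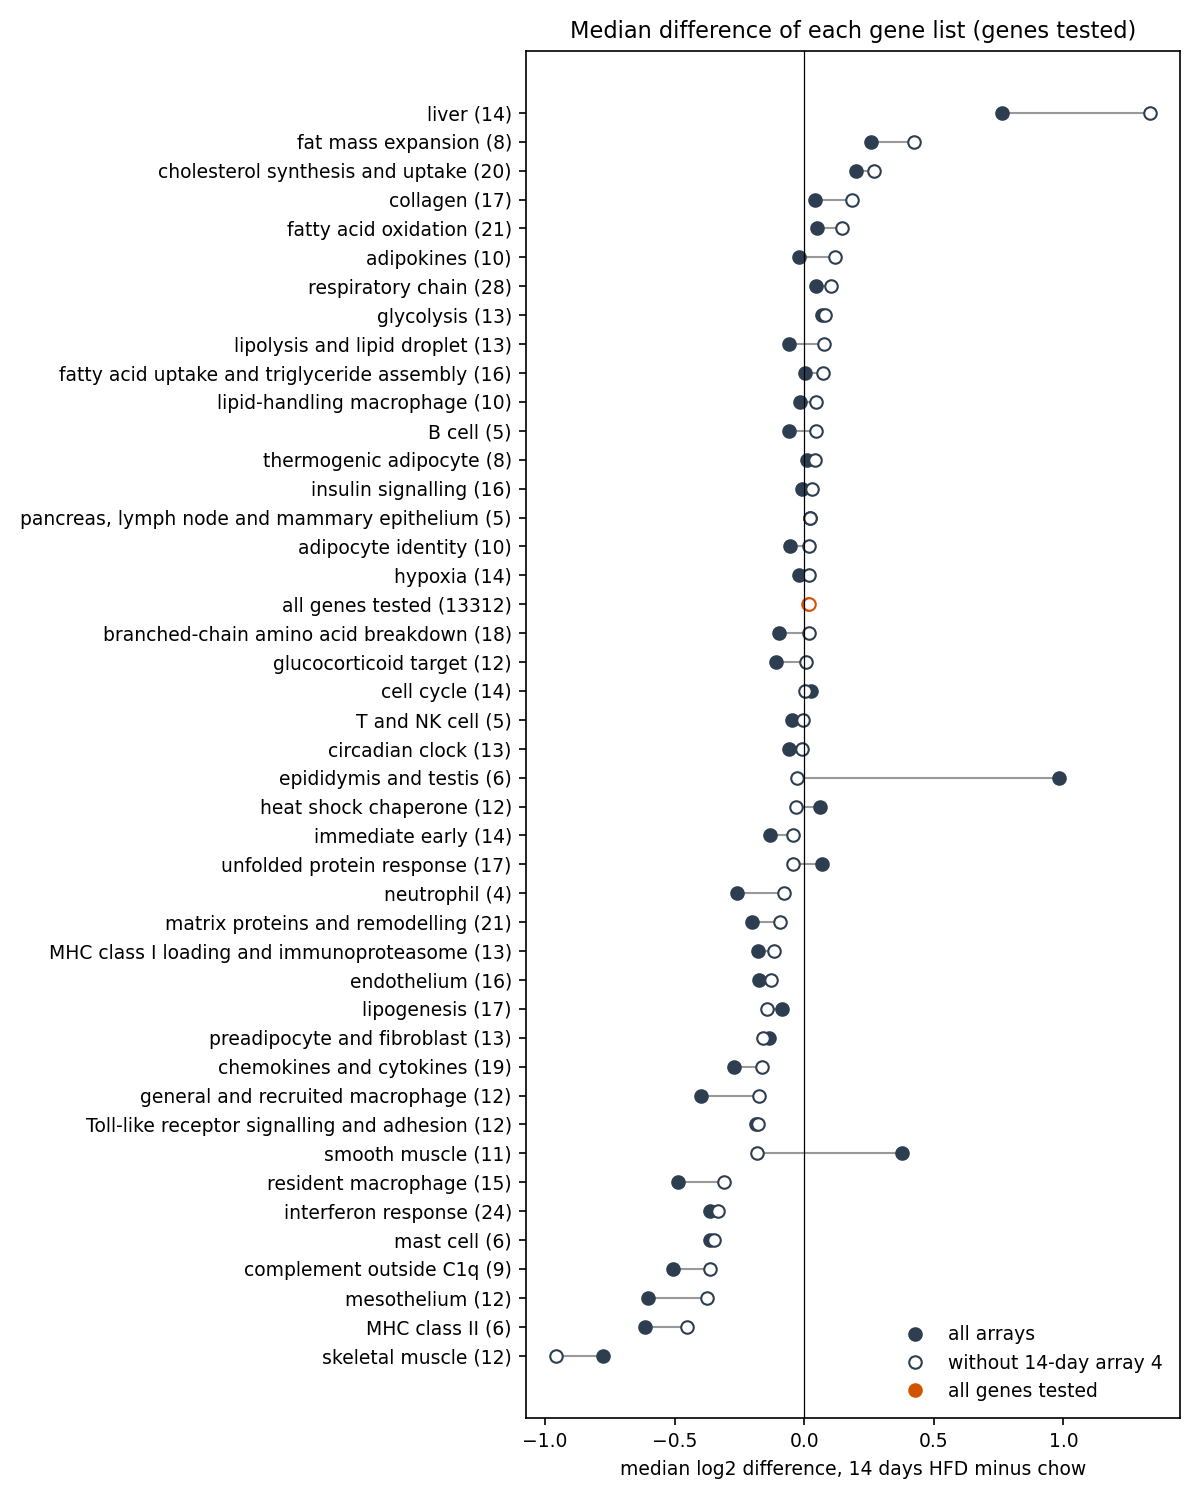
Median log2 difference between 14 days of HFD and chow for each gene list, with all arrays (filled) and without 14-day array 4 (open); the number of genes tested is in brackets and all tested genes are in orange. Most immune lists and the complement, mast cell and mesothelial lists lie below 0 in both, and cholesterol and fat mass lists above 0 in both. The B cell and lipid-handling macrophage medians change from -0.06 and -0.02 to 0.04 and 0.04. The epididymal and smooth muscle medians change from 0.98 and 0.38 to -0.03 and -0.18.

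HFD for 14 days was also set against HFD for 5 days. In limma 0 of 13312 genes passed (0%), with a lowest adjusted p of 0.672, and 235 were higher (1.77%) and 105 lower (0.789%) at an unadjusted p under 0.05. Without 14-day array 4 the lowest adjusted p was 0.128, with 0 genes passing and 680 higher (5.11%) and 700 lower (5.26%) at an unadjusted p under 0.05. The mean of the epididymal markers was 10.52, 10.72, 11.22 and 7.52 in 5-day arrays 1 to 4. It was at most 8.01 in 14-day arrays 1 to 3 and at most 8.46 in chow. The part of this in these counts and in the 5-day differences that follow was not tested. Differences from chow at 5 days, which share the chow arrays, were -0.54 for Cd14, -0.68 for Osr1, -0.74 for Gas6, 0.40 for Fhl1, 0.74 for Mrps6 and 0.43 for Ighm. Ccl8 was at 0.20 at 5 days and -0.70 at 14 days, and the difference between the times was not called.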

How the data were processed

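Total RNA of adipose tissue was hybridised to Affymetrix arrays, 1 sample per array, per the labels' protocols. The deposited values are log2 signals per probe set; how the authors summarised and normalised them is not given in the sources used here. Array medians lay between 8.09 and 8.14, and no further normalization was applied. Of 45098 probe sets, 61 were controls, 34945 carried 1 gene symbol in the platform annotation, 932 several and 9160 none, and only those with 1 symbol were named. Each gene took its probe set of highest mean over the 12 arrays. Genes under the 40th percentile, 7.64 log2, were left out. limma 3.58.1 (R 4.3.3; lmFit, and eBayes with a trend) was fitted to the 3 diet groups together, without a replicate block, with Benjamini-Hochberg adjustment over 13312 genes. A second fit left out 14-day array 4, which alone in its group had Adam7 above 11. The procedure was tested on simulated data with independent normal noise for each gene and array. Those data held no shift shared by many genes of an array, as in 14-day array 4, so the test does not cover such shifts. The number of arrays limits the precision.

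Named genes are the 10 of smallest p in each direction in each fit, the members of each list with the lowest p in either fit (4 at most), a set of 15 genes of fat mass, inflammation and metabolism, and the measured markers of 4 other tissues; a gene outside this rule is said to be chosen after its values were seen. The comparison, its gene lists and the named genes were chosen with earlier results of these data known, so counts over lists are descriptions and carry no test. Promoter windows came from RefSeq (GRCm38.p6). Alternatives covered normalization, the filter, the choice of probe set, the eBayes settings, array weights, the arrays fitted, a replicate block, and leaving out each array. Leaving out the number 4 arrays of both HFD groups together was added after seeing the data.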

Additional observations from a re-analysis of the deposited data

Results flagged for a closer look

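Within a group of 4 arrays, 1 array stood apart from the rest by Dixon's criterion in 22 of 266 groups of gene values, from 21 named genes, and in 10 of 86 groups of list means, from 9 lists. For independent normal values about 1 in 20 groups would pass. Genes and lists measured in the same arrays are not independent, and some genes were named by their p without array 4. The counts are therefore no test against that rate. Of the values that stood apart, 17 belong to 14-day array 4 and 4 to chow array 3.

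In 14-day array 4 the epididymal genes Adam7 and Lcn5 stood apart at 13.89 and 14.54, and so did the epididymal list mean at 11.96. The Adam7 value is the one by which this array was picked. It and the list mean that includes it therefore give no further support. The interferon factor gene Irf9 stood high in array 4 at 10.56. It was low for Ighm at 11.35, Wt1 at 8.56, Lyz2 at 11.71, Itgax at 8.53 and Cd3e at 9.22. It was also low for Pparg at 11.75, Clstn3 at 9.71 and Tmed5 at 12.09. Its list means for lipid-handling macrophages, lipolysis, hypoxia and preadipocytes were low at 11.73, 12.07, 11.30 and 9.62, and that of the unfolded protein response was high at 11.87. Array 2 of the 14-day group was low for Tln2 at 11.06 and Gcsh at 12.16.

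In chow array 3 the muscle gene Tnnt3 stood apart at 13.105 and Lcn5 at 8.78, as did the skeletal muscle and epididymal list means at 12.66 and 8.46. Chow array 1 stood apart for Osr1 at 10.48, C1qc at 12.035, Sc5d at 11.64, Slc25a5 at 13.66 and Ptgs2 at 6.56, and chow array 2 for Fmod at 11.47. Chow array 4 was low for Gdpd5 at 9.055 and for the list means of fatty acid synthesis at 12.34 and of clock genes at 10.62.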

How the results depend on the processing

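With all arrays, the count of 0 called genes stayed 0 in limma under median centring, quantile normalization, either filter, averaged probe sets, both eBayes settings, a fit of the compared groups alone, an adjusted p under 0.1 and a replicate block. It was 2981 with array weights, which ran from 0.106 for 14-day array 4 to 3.54 for 14-day array 1. It was 1 without 14-day array 4 and chow array 3 together and 1 without the number 4 arrays of both HFD groups, a choice made after seeing the data. Leaving out 1 array gave 0 to 20. The count of 2 without 14-day array 4 became 1 with quantile normalization, 0 with averaged probe sets, 0 with only the groups compared, 0 with a replicate block and 3935 with array weights, and ran from 0 to 665 with a further array left out. Against 5 days the count of 0 became 2213 with array weights. The cause of these changes was not tested. The replicate numbers were not shown to pair the arrays: deviations of same-numbered chow and 14-day arrays correlated at 0.088, 0.408, 0.005 and 0.158.

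Of 133 named genes, 122 kept their direction in every fit. With the number 4 arrays of both HFD groups left out, 5 turned: Tnf 0.0019, Adipoq 0.0031, Adam7 -0.21, Lcn5 -0.63 and Myh11 -0.14. With probe sets averaged per gene Scd1 was -0.0028 and Hif1a -0.022, and with quantile normalization Slc25a5 was -0.0084. Leaving out 1 array, the range was -0.082 to 0.011 for Tnf, -0.046 to 0.0031 for Adipoq, -0.049 to 0.22 for Slc2a4, -0.039 to 0.048 for Slc25a5, -0.0062 to 0.11 for Nos2, -0.21 to 1.81 for Adam7, -0.63 to 2.21 for Lcn5, -1.96 to 0.0093 for Tnnt3 and -0.14 to 1.48 for Myh11. The interferon median ran from -0.44 without chow array 2 to -0.28 without chow array 3, and the skeletal muscle median was 0.14 without chow array 3. Precision is limited by the number of arrays, 4 a group.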
